A study of Mus musculus with 8 samples.

Results

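The 35 genes described here mark the cells of brain blood vessels: endothelial transcription factors, junction and surface proteins, vascular receptors, blood-brain barrier transporters, and genes of the mural cells that wrap the vessels. They were chosen by name, as non-control probes whose RefSeq accession belongs to a listed vascular gene, and all 35 were on the array, out of 20660 gene symbols with a probe. They are carried by 41 probes, with 1 probe each for 29 genes and 2 each for the other 6. The question was whether Erg, an endothelial transcription factor gene that Ts1Cje mice carry in 3 copies, was higher in expression, and whether the 34 genes that stay at 2 copies differed with it.

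RNA of whole hippocampus was measured on 8 one-colour arrays, from 4 Ts1Cje and 4 wild-type C57BL6/J mice aged 3 months. Ts1Cje is a partial trisomy model of Down syndrome: a translocation adds an extra copy of distal chromosome 16 from just past Sod1, itself disrupted on the added piece, as far as Zbtb21, and leaves the tip of chromosome 12 at a single copy. The series names the arrays as 4 pairs of Ts1Cje mice with disomic littermates, and nothing in the labels gives the sex of the mice or says which replicate numbers are littermates. Values are log2 signals centred at each array's 75th percentile, so that 0 is that percentile and a difference of 1 is a doubling.

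Endothelial cells line the brain's capillaries and are sealed by claudin and cadherin junctions. Erg and its relatives Fli1 and Ets1 belong to the Ets family, which binds DNA at a GGAA core, and Erg is known to keep endothelial genes such as Cdh5 and Cldn5 active. Pericytes, which carry Pdgfrb, sit on the outer face of the capillary wall and are needed for the barrier.

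All 35 genes were well above background on all 8 arrays, with a value on every array. All 10 hippocampal markers examined, among them Prox1 and Wfs1, passed the filter on dim probes. So did all 8 choroid plexus markers, so passing does not identify the tissue, and no other brain region was compared. Of the 10, 3 had an unadjusted p under 0.05 (limma) without passing, where 8.73% of all features had such a p. Those of lowest p were C1ql2 at a log2 fold change of -0.25 (SE 0.05, limma adjusted p = 0.148) and Wfs1 at 0.30 (SE 0.07, adjusted p = 0.222). Both had separate groups, as did 6.12% of all features. Between 59.9% and 63.1% of all probes were well above background on an array. Slide columns alternated between the genotypes, so that slide column and genotype cannot be told apart. In RNA of whole tissue, fewer endothelial cells and less RNA per endothelial cell cannot be told apart either.

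The promoters of Erg and of 4 of these genes are shown because the Ets family binds a GGAA core, and the question of Erg dosage bears on genes that hold it. They were taken from RefSeq promoters on GRCm38.p6, 250 bases before to 50 after a start site, written 5′ to 3′ along the gene. Eng, Tek and Emcn were the genes in that table, with a single start, whose unadjusted p was under 0.05, and Cldn5 is a known target of Erg. For Erg the most upstream of 3 listed starts is given. Capitals mark GGAA or its reverse complement TTCC.
Erg, chr16:95586544-95586843, minus strand: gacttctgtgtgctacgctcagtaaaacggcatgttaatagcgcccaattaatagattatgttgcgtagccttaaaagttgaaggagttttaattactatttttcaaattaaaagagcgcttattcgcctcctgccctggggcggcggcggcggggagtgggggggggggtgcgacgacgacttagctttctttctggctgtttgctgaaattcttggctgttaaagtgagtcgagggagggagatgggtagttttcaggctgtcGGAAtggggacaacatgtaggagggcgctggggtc
Eng, chr2:32646345-32646644, plus strand: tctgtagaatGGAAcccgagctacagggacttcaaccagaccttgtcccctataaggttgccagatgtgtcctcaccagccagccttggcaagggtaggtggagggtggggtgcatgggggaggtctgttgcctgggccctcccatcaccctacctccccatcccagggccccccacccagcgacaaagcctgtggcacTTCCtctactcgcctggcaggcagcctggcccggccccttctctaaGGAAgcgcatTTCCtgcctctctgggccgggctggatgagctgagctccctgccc
Tek, chr4:94739039-94739338, plus strand: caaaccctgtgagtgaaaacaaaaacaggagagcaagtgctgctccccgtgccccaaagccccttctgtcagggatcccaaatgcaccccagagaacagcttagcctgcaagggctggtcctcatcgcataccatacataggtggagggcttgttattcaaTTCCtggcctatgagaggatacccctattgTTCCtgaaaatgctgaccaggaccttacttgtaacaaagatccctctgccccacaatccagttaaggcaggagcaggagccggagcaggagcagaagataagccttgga
Emcn, chr3:137340828-137341127, plus strand: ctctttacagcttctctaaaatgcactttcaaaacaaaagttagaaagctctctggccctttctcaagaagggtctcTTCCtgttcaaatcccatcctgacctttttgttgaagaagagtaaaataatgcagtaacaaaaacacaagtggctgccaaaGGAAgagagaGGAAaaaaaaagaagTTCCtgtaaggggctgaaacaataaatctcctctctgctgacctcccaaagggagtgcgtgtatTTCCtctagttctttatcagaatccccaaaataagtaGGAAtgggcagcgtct
Cldn5, chr16:18776597-18776896, plus strand: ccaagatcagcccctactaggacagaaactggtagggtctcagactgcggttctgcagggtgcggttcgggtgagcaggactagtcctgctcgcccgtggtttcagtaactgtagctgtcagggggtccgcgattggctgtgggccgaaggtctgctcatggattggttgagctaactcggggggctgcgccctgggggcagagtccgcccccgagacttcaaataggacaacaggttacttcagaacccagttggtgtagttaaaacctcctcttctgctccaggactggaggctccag

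GGAA was found on either strand 1 time in the Erg window, 4 times in Eng, 2 times in Tek, 6 times in Emcn and 0 times in Cldn5. It is short, and 96.0% of all 32851 promoters of this length held it, as did 19 of the 21 genes with an entry (90.5%, against 96.5% of all genes). The longer AGGAAG, which contains GGAA and was also sought on both strands as CTTCCT, was found 2 times each in the windows of Eng and Emcn and 0 times in those of Erg, Tek and Cldn5. It was in 35.4% of all promoters and in 16 of the 27 windows that belong to 21 of the 35 genes (59.3%), some of which overlap. By gene, counting any start, the share was 66.7% of the 21 against 38.4% of all 27025 genes. Eng and Emcn, which both hold it, stood on opposite sides of 0, at log2 fold changes of 0.14 and -0.17, Ts1Cje over wild-type. A match is only a description of letters and says nothing of binding in these cells.

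Erg was higher in Ts1Cje on every array, but its difference did not pass the test over all genes. Its signal stood at -4.27, -4.22, -4.00 and -4.18 in wild-type replicates 1 to 4 and at -3.29, -2.98, -3.84 and -3.72 in Ts1Cje replicates 1 to 4. The groups were separate, and Ts1Cje replicates 1 and 2 were well above the other two of their group. The group means were -3.46 ± 0.40 and -4.17 ± 0.12 (SD, n = 4 each), a 1.63-fold difference (log2 fold change 0.71, SE 0.18; limma adjusted p = 0.338 over 24025 features, unadjusted p = 0.00461). Its 95% interval, 0.29 to 1.13 on the log2 scale, held 0.58, the log2 of 3 copies over 2.

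The Erg probe was dim. Its spot median brightness ran from 74 to 123 over the 8 arrays, against a local background of 24 to 32. The other Erg probe, well above background on 0 of the 8 arrays, was not used. The alternative that moved the value most was normexp background correction with an added offset of 50. There the log2 fold change of Erg was 0.30 (limma adjusted p = 0.434). The offset lies within the 29.3 to 73.9 range of the probe's processed signal, and adding it shrinks log2 differences of dim probes. The correction and the offset were not run apart. Leaving out 1 array at a time gave 0.55 to 0.83, the lowest without Ts1Cje replicate 2.

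**Figure D1:**
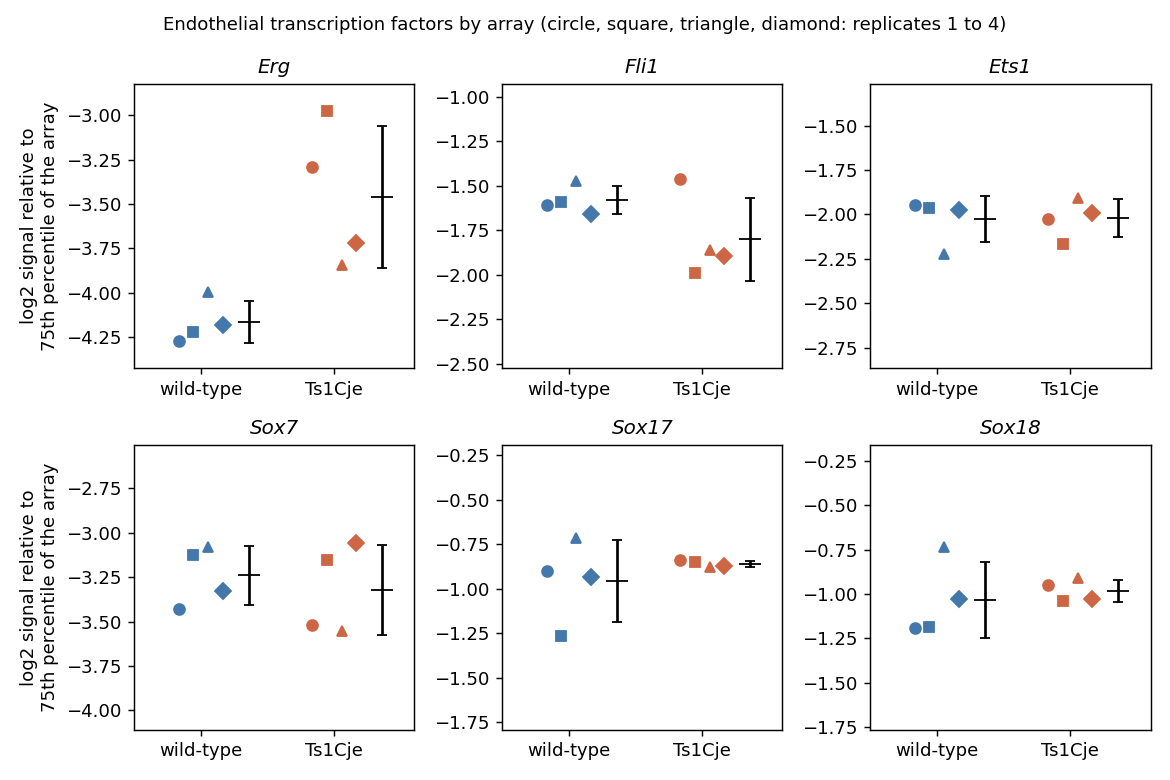
Log2 signal of the 6 endothelial transcription factors, centred at each array's 75th percentile, on the y axis, in wild-type (blue) and Ts1Cje (orange) mice; each point is 1 array, the bar is the mean and SD of 4, and every panel spans the same range. Erg runs from -4.27 to -4.00 in wild-type and from -3.84 to -2.98 in Ts1Cje, while the groups of the other 5 genes overlap.

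Erg lies in a stretch of the extra segment whose neighbours were measured more precisely. Of 7 genes near it on chromosome 16, Kcnj15 was not tested because neither group had it well above background on all 4 arrays, 5 rose past the threshold and Kcnj6 did not pass. Dyrk1a, a protein kinase gene, was 1.56-fold higher (adjusted p = 0.00776). Ets2, the next gene beyond Erg and itself an Ets factor, was 1.40-fold higher (3.55 ± 0.05 against 3.06 ± 0.04, SD, n = 4 each; adjusted p = 0.00808).

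Hmgn1 (1.39-fold), Brwd1 (1.45-fold) and Psmg1 (1.41-fold) also rose, with adjusted p of 0.0141 to 0.0190. Kcnj6, a potassium channel gene, stood 1.58-fold higher (adjusted p = 0.0661). The fold of Erg lay above all of these, but its interval was wide enough to hold every one of them. Further out, Pigp (0.48), Ttc3 (0.44) and Vps26c (0.62) rose on the log2 scale, with adjusted p of 0.00792 to 0.0436, while Get1 at 0.46 did not pass (adjusted p = 0.0799). Lca5l, the outermost on the other side, stood at 0.22 (95% interval -0.0087 to 0.45, adjusted p = 0.584), below the lower limit of Erg and short of 0.58.

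**Figure D2:**
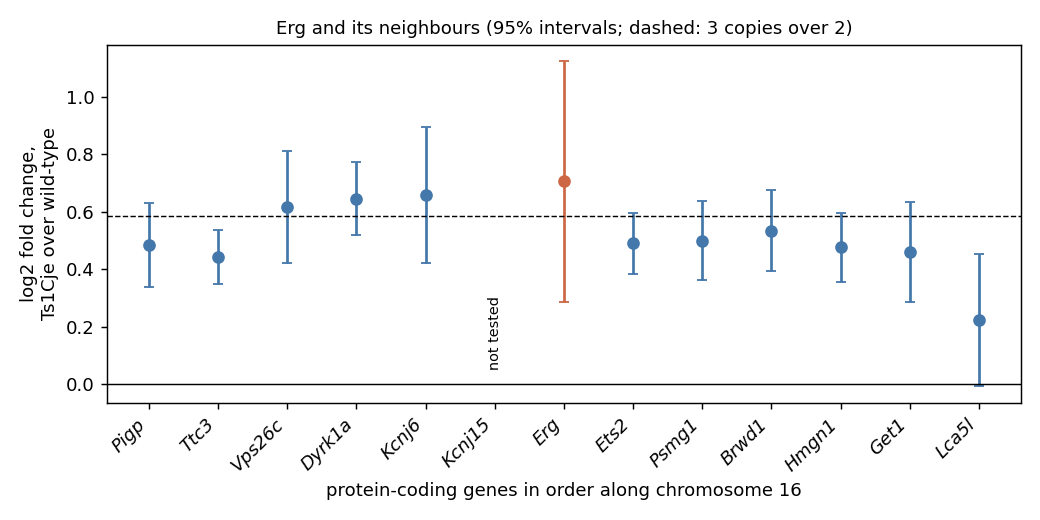
Log2 fold change of Erg (orange) and the protein-coding genes around it (blue), Ts1Cje over wild-type, with 95% intervals on the y axis, in their order along chromosome 16 on the x axis; the dashed line is 3 copies over 2. Erg stands at 0.71 with the widest interval shown, 0.29 to 1.13, and Ets2 at 0.49.

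The other 5 endothelial transcription factors did not differ between the groups past the threshold, and their arrays overlapped. Fli1, the closest relative of Erg in this set and a neighbour of Ets1 on chromosome 9, stood at -1.61, -1.59, -1.47 and -1.66 in wild-type replicates 1 to 4 and at -1.46, -1.99, -1.86 and -1.89 in Ts1Cje replicates 1 to 4. Ts1Cje replicates 2, 3 and 4 were the lowest of the 8 and Ts1Cje replicate 1 the highest (log2 fold change -0.22, SE 0.11, adjusted p = 0.618). Without Ts1Cje replicate 1 the log2 fold change of Fli1 was -0.33 (adjusted p = 0.164). Ets1, which acts in endothelium and lymphocytes, stood at -1.94, -1.96, -2.22 and -1.98 in wild-type and at -2.02, -2.17, -1.91 and -1.99 in Ts1Cje replicates 1 to 4. The lowest array was wild-type replicate 3, and the log2 fold change was 0.00 (SE 0.08). Its 2 probes gave 0.00 and -0.23.

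The SoxF factors Sox7, Sox17 and Sox18 act together in vessel formation and arterial identity. Sox17 stood at -0.90, -1.27, -0.72 and -0.94 in wild-type replicates 1 to 4 and at -0.84, -0.85, -0.88 and -0.87 in Ts1Cje replicates 1 to 4. The Ts1Cje values sat inside the wild-type range, and the log2 fold change was 0.10 (SE 0.11) on this probe and 0.12 on the other. Sox18 stood at -1.19, -1.18, -0.73 and -1.03 in wild-type and at -0.95, -1.04, -0.91 and -1.03 in Ts1Cje, again inside the wild-type range (0.05, SE 0.10). Sox7 stood at -3.43, -3.13, -3.08 and -3.33 in wild-type and at -3.52, -3.16, -3.56 and -3.06 in Ts1Cje, with the lowest and the highest array both in Ts1Cje (-0.08, SE 0.13).

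Within arrays, Erg gained on some of these factors. The log2 difference of Erg minus Fli1 was -2.58 ± 0.07 in wild-type and -1.66 ± 0.45 in Ts1Cje (SD, n = 4 each), a gain of 0.93. Its exact permutation p, two-sided, was 0.0286, which 70 assignments cannot go below, and 0.0476 after adjustment over the 5 factors. The gain was 0.79 over Sox7 and 0.65 over Sox18, with the same exact p and adjusted p. All 5 ratios use the same Erg values, whose groups were separate by themselves, so they are not separate results. The gain over Fli1 also holds the lower mean of Fli1 in Ts1Cje (log2 fold change -0.22). Over Ets1 (0.70) and Sox17 (0.61) the groups overlapped, with an exact permutation p and adjusted p of 0.0571 each.

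These ratios are between probes of different genes, so only their change between genotypes is read here. The 3 ratios that passed no longer did with normexp, where the gain over Fli1 was 0.44 (exact permutation test, adjusted p = 0.0952), over Sox7 0.35 (0.0952) and over Sox18 0.26 (0.200). They also did not pass without any 1 of the 4 wild-type arrays (exact permutation test, adjusted p 0.0714 to 0.0952). There the gain over Fli1 stayed between 0.90 and 0.95, over Sox7 between 0.73 and 0.82 and over Sox18 between 0.61 and 0.69. The groups stayed separate, and an uneven split of 3 against 4 arrays can raise the exact p. Not passing there therefore says nothing of the stability of the 3 ratios.

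None of the 34 genes at 2 copies passed an adjusted p under 0.05 in limma, where 0.196% of the 24025 features did (42 or 0.175% higher and 5 or 0.0208% lower, or 47 and 13 with quantile normalization). At an unadjusted p under 0.05 there were 5 of the 34, or 6 of the 35 with Erg (17.1%), against a background of 8.73% of all features. The 5 were Eng, Tek and Ly6c1 on the higher side, where the background was 4.15%, and Emcn and Pdgfrb on the lower side, where it was 4.57%. Of the 34, 22 stood above 0 and 12 below. Their median log2 fold change was 0.05, against -0.01 over all features, and it turned to -0.0045 with the array median as centre, to -0.03 with the mean of the 2-copy endothelial genes as centre, and to -0.01 without Ts1Cje replicate 1. Leaving out an array of the wild-type moved it to 0.11 (replicate 3) or 0.00063 (replicate 2).

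Erg and Eng were the genes whose groups did not overlap, both higher in Ts1Cje, 2 of 35 where 6.12% of all features did not overlap (2.42% higher and 3.7% lower). The precision was enough to bound most of the genes. For 29 of the 34, the 95% interval lay wholly inside a 1.5-fold change in either direction. The exceptions were Nostrin, Ly6c1, Ly6a, Vwf and Ctla2a, whose upper limits lay beyond it.

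**Figure D3:**
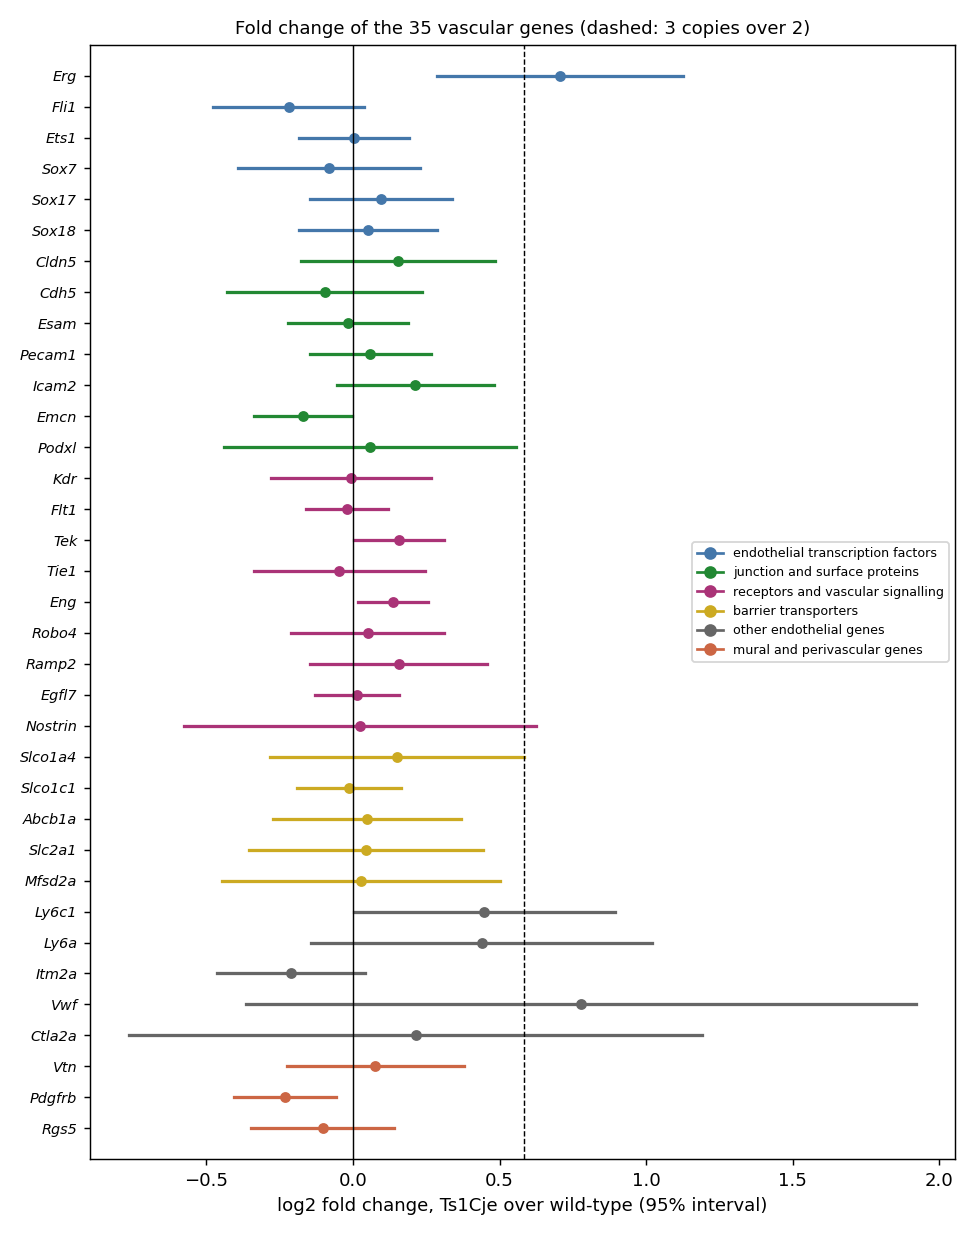
Log2 fold change of the 35 genes, Ts1Cje over wild-type, on the x axis with the 95% interval of the fit as a line, in order of role (colours); the dashed line is 3 copies over 2. Erg lies apart from the other factors at 0.71, Vwf and Ctla2a have the widest intervals, and 29 of the 34 others lie within a 1.5-fold change.

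The junction and surface proteins stood close to 0. Emcn, which encodes the endothelial sialomucin endomucin, stood at -2.08, -2.04, -2.03 and -2.20 in wild-type replicates 1 to 4 and at -2.19, -2.42, -2.14 and -2.27 in Ts1Cje replicates 1 to 4. Wild-type replicate 4 lay among the Ts1Cje arrays, and the difference (-0.17, SE 0.07, adjusted p = 0.569) did not pass. Icam2, an adhesion molecule held at endothelial junctions, stood at 1.11, 0.85, 0.72 and 0.63 in wild-type and at 1.04, 1.14, 0.84 and 1.14 in Ts1Cje replicates 1 to 4. The highest wild-type array reached the upper Ts1Cje values, and the log2 fold change was 0.21 (SE 0.12, adjusted p = 0.640).

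Cldn5, the main claudin of the brain barrier, is also on chromosome 16 but outside the extra segment, and so has 2 copies. It ran from 2.97 to 3.39 in wild-type and from 3.04 to 3.62 in Ts1Cje, with replicate 1 the highest of each group (0.15, SE 0.14, adjusted p = 0.764, and 0.04 without Ts1Cje replicate 1). Cdh5, the endothelial cadherin gene, stood at -0.10 (SE 0.14). Pecam1 and Podxl both stood at 0.06 (SE 0.09 and 0.22) and Esam, a junctional adhesion molecule, at -0.02 (SE 0.09).

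Among receptors and signalling genes, the genes closest to a difference were Eng and Tek. Eng, which encodes the TGF-beta and BMP9 co-receptor endoglin, stood at -0.35, -0.39, -0.33 and -0.32 in wild-type replicates 1 to 4 and at -0.21, -0.29, -0.24 and -0.11 in Ts1Cje replicates 1 to 4. The groups were separate but close, a 1.1-fold difference (0.14, SE 0.05, unadjusted p = 0.0307, limma adjusted p = 0.526). With the mean of the 2-copy endothelial genes as centre, Eng stood at 0.06. Tek, the angiopoietin receptor Tie2, stood at -2.24, -2.25, -2.12 and -2.26 in wild-type and at -2.14, -2.17, -1.99 and -1.94 in Ts1Cje. Wild-type replicate 3 lay within the Ts1Cje range (0.16, SE 0.07, adjusted p = 0.569).

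Kdr and Flt1, the main VEGF receptor genes of endothelium, stood at -0.01 (SE 0.12) and -0.02 (SE 0.06), and the second Kdr probe gave 0.05. Egfl7, a secreted endothelial factor, stood at 0.01 (SE 0.06), Tie1 at -0.05 (SE 0.13) and the guidance receptor gene Robo4 at 0.05 (SE 0.11). Ramp2, a subunit of the adrenomedullin receptor, stood at 0.16 (SE 0.13, and 0.02 without Ts1Cje replicate 1), with Ts1Cje replicate 1 at 4.40 and the other 7 arrays between 3.71 and 3.95. Nostrin, which binds endothelial nitric oxide synthase, was among the least precise, at 0.02 (SE 0.26), its arrays spreading from -3.26 to -2.02 in wild-type.

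The 5 barrier transporters overlapped between genotypes. The 2 with the lowest p were Slco1a4 and Abcb1a. Slco1a4, an organic anion transporter, stood at 0.46, 0.06, 0.70 and 0.39 in wild-type replicates 1 to 4 and at 0.95, 0.15, 0.66 and 0.45 in Ts1Cje replicates 1 to 4 (0.15, SE 0.19, adjusted p = 0.826). Leaving out Ts1Cje replicate 1 gave 0.02, leaving out replicate 2 of the wild-type 0.04, and leaving out replicate 2 of Ts1Cje 0.29. Abcb1a, the P-glycoprotein efflux pump, stood at 0.86, 0.46, 1.09 and 0.73 and at 0.94, 0.61, 0.97 and 0.81 in the same order (0.05, SE 0.14). Replicate 2 was the lowest of its group for both genes in both genotypes. The lipid transporter Mfsd2a (0.03, SE 0.21) and the glucose transporter Slc2a1 (0.04, SE 0.17) were each highest in wild-type replicate 3, at 2.74 and 3.64.

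Slco1c1, a thyroid hormone transporter, did not follow that order, and ran only from 1.03 to 1.36 over all 8 arrays (-0.01, SE 0.08), with 0.00 on its second probe. As a mean over the 5 transporters, each as its deviation from its own mean over 8 arrays, the arrays spread from -0.27 to 0.24 in wild-type and from -0.21 to 0.17 in Ts1Cje. The difference between the genotype means was 0.05.

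**Figure D4:**
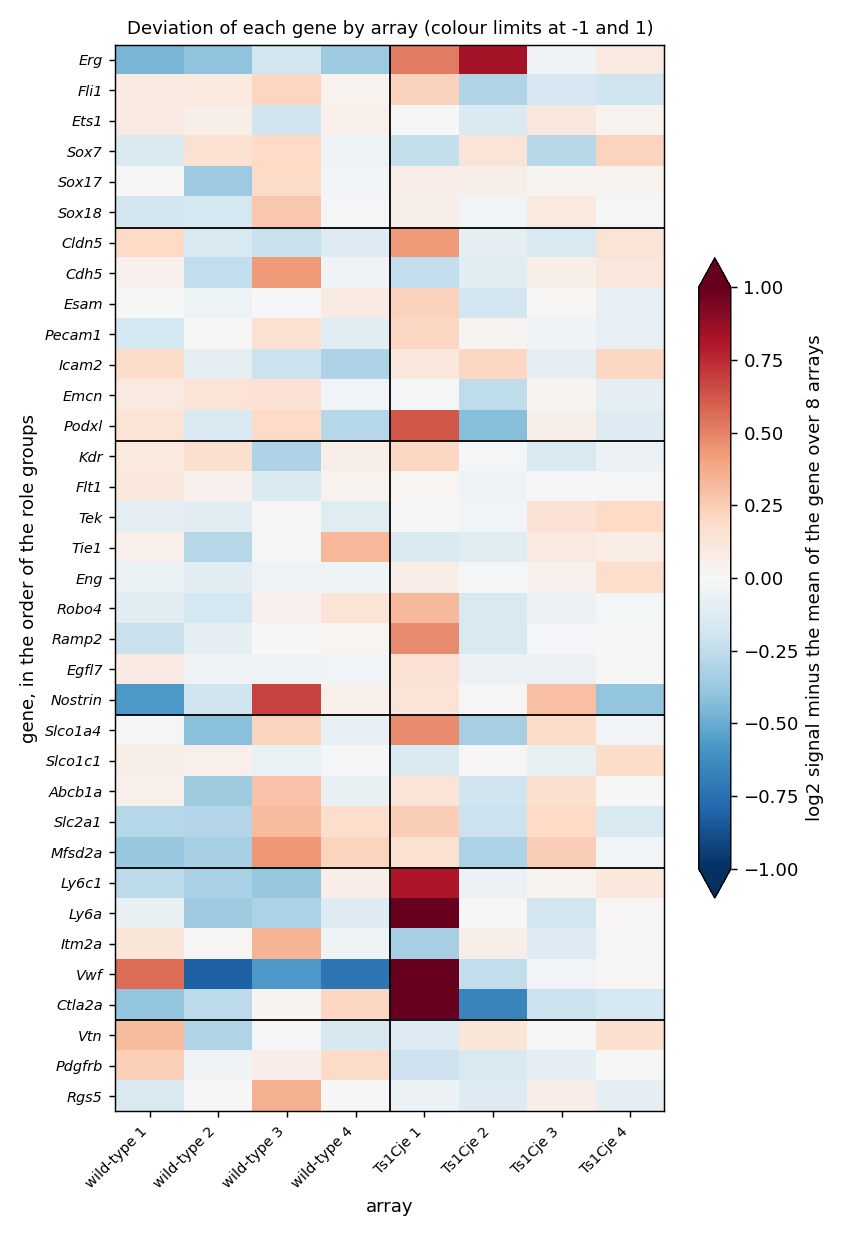
Log2 signal of each gene minus its own mean over the 8 arrays, as colour from -1 (blue) to 1 (red); genes are rows in the order of the role groups, arrays are columns with wild-type left of the vertical line. Erg is below its mean on every wild-type array and clearly above it in Ts1Cje replicates 1 (0.52) and 2 (0.83). It is close to its mean in Ts1Cje replicates 3 (-0.03) and 4 (0.09). Ly6c1, Ly6a, Vwf and Ctla2a are darkest in Ts1Cje replicate 1.

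The widest differences among the genes at 2 copies were in the remaining endothelial genes, and for 4 of these 5 genes Ts1Cje replicate 1 was the highest array. Ly6c1, a surface protein gene of endothelium and of some leukocytes, stood at 4.30, 4.23, 4.18 and 4.62 in wild-type replicates 1 to 4 and at 5.36, 4.50, 4.60 and 4.66 in Ts1Cje replicates 1 to 4. Its log2 fold change was 0.45 (SE 0.19, adjusted p = 0.571) and 0.28 on its second probe, and without Ts1Cje replicate 1 it was 0.25. Ly6c1 belongs to a family of close copies, so its probes may also read related genes. Itm2a, an endothelial membrane protein gene, stood at 2.71, 2.60, 2.92 and 2.53 in wild-type and at 2.25, 2.64, 2.45 and 2.57 in Ts1Cje. The groups overlapped, and Ts1Cje replicate 1 was the lowest array (-0.21, SE 0.11, adjusted p = 0.624).

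Vwf, Ly6a and Ctla2a are described next because of their spread, which was seen first. Vwf, which encodes von Willebrand factor and is more abundant in larger vessels than in capillaries, stood at 2.60, 1.22, 1.47 and 1.32 in wild-type replicates 1 to 4 and at 3.86, 1.79, 2.01 and 2.06 in Ts1Cje replicates 1 to 4. Replicate 1 was the highest of each group, and the log2 fold change of 0.78 had an SE of 0.50 (adjusted p = 0.669). Leaving out Ts1Cje replicate 1 gave 0.30, and leaving out replicate 1 of the wild-type gave 1.09. Each of these fits keeps the high array of the other genotype, and no fit left out both. Outside replicate 1, Vwf ran from 1.22 to 1.47 in wild-type and from 1.79 to 2.06 in Ts1Cje, without overlap. Ly6a, known as Sca-1, stood at 3.18 in Ts1Cje replicate 1 and between 1.76 and 2.13 on the other 7 arrays (0.44, SE 0.25, or 0.16 without Ts1Cje replicate 1). Ctla2a, a cathepsin inhibitor gene, stood at 2.68 in Ts1Cje replicate 1 and between 0.53 and 1.40 elsewhere, and its log2 fold change of 0.21 (SE 0.42) turned to -0.25 without that array.

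Ts1Cje replicate 1 was the highest of the 8 arrays for 14 of the 34 genes at 2 copies (41.2%), where it was highest for 14.4% of all features. Its mean deviation over the 5 genes of this group was 0.97, against -0.18 to -0.01 on the other 3 Ts1Cje arrays and -0.35 to -0.01 on the wild-type arrays. The means of the factor, junction and receptor groups lay between -0.12 and 0.19 on the Ts1Cje arrays. Ts1Cje replicate 1 was the highest of the 8 arrays in each of them, at 0.11, 0.19 and 0.14. The factor mean includes Erg, at 3 copies, which deviated by 0.52 on that array. The other factors deviated there by 0.23 (Fli1), 0.001 (Ets1), -0.24 (Sox7), 0.07 (Sox17) and 0.06 (Sox18). Of these, Fli1 alone was highest on that array, and Sox17 and Sox18 were highest in wild-type replicate 3. For the barrier transporters Ts1Cje replicate 1 stood at 0.17, below wild-type replicate 3 at 0.24. Over all 2-copy endothelial genes its mean was 0.27, against -0.15 to 0.05 on the wild-type arrays. Wild-type replicate 3 was the highest array for 10 of the 34 (29.4%, against 19.3% of all features). One further gene stood apart on the same array, named after its values were seen: Lcn2, an acute-phase gene induced in inflamed endothelium and glia. It stood at 1.31 in wild-type replicate 1 and 1.92 in Ts1Cje replicate 1, and between -2.62 and -1.63 on the other 6 arrays. Its part in the endothelial values of those arrays was not tested.

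**Figure D5:**
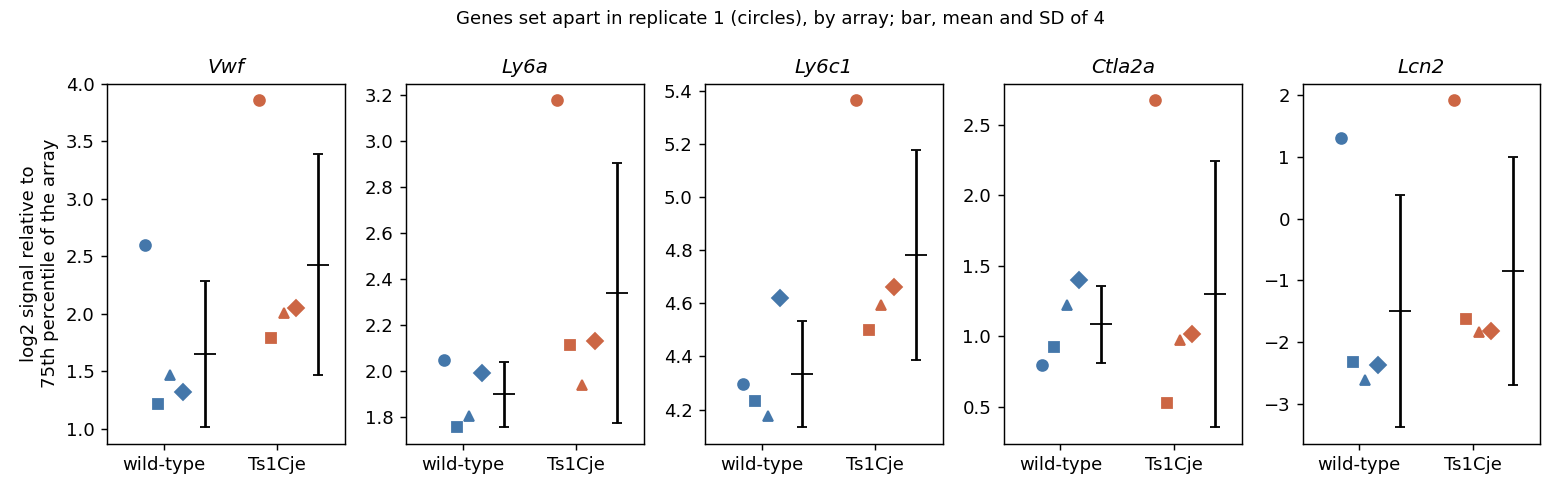
Log2 signal of 4 endothelial genes and Lcn2, centred at each array's 75th percentile, on y axes of differing range, in wild-type (blue) and Ts1Cje (orange) mice; circles are replicate 1, other symbols replicates 2 to 4, bars the mean and SD of 4. Ts1Cje replicate 1 is the highest array in all 5 panels, and wild-type replicate 1 is high for Vwf (2.60) and Lcn2 (1.31).

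Of the mural and perivascular genes, Pdgfrb stood lower in Ts1Cje without passing the test. This PDGF receptor of pericytes stood at -0.01, -0.28, -0.19 and -0.06 in wild-type replicates 1 to 4 and at -0.46, -0.40, -0.35 and -0.26 in Ts1Cje replicates 1 to 4. Wild-type replicate 2 lay just below Ts1Cje replicate 4, and the other arrays were separate (-0.23, SE 0.075, unadjusted p = 0.0145, limma adjusted p = 0.448). Rgs5, a pericyte regulator of G-protein signalling, stood at 0.98, 1.14, 1.49 and 1.13 in wild-type and at 1.07, 1.01, 1.20 and 1.04 in Ts1Cje. Its groups overlapped (-0.10, SE 0.11), and Vtn, the vitronectin gene of pericytes, stood at 0.08 (SE 0.13).

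A wider list of 18 pericyte and smooth muscle genes did not carry the Pdgfrb difference. Of its 17 tested members none passed and none had an unadjusted p under 0.05 (limma), with 8 above 0, 9 below and a median of -0.03. The 2 with the lowest p were the pericyte gene Ndufa4l2 (0.11, SE 0.07) and Mcam, an adhesion molecule of vessels (-0.08, SE 0.05). Fibroblast and meningeal genes, which also carry Pdgfrb, varied most within wild-type: the mean deviation of the 10 genes ran from -0.66 to 0.45 on the wild-type arrays and from -0.11 to 0.15 on the Ts1Cje arrays. All 10 were above the filter, with Dcn at 0.29 (SE 0.18) and Lum at -0.22 (SE 0.15), and their part in the Pdgfrb value was not tested.

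Other genes of the vascular pathways were counted in the same way. Of 12 genes reported to be activated by Erg, none passed. Eng had an unadjusted p under 0.05 (limma), or 8.33% of the 12 against 8.73% of all features. Of the 12, 9 stood above 0, and the median was 0.05. Of these 12, 8 are also among the 35 genes, so they are no separate evidence. Of 17 ligands of the VEGF, angiopoietin, PDGF, Notch, apelin, BMP and TGF-beta pathways, none passed or had an unadjusted p under 0.05 (limma), with a median of 0.02. Angpt1, the ligand of Tek, stood at -0.17 (SE 0.09) and Tgfb1 at 0.15 (SE 0.08).

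Of 15 tested vascular receptors and targets outside the 35, none passed and 2 (13.3%) had an unadjusted p under 0.05. Acvrl1, the ALK1 receptor that partners with endoglin, stood at 0.22 (SE 0.07, adjusted p = 0.451) and the chemokine receptor gene Cxcr4 at -0.37 (SE 0.15, adjusted p = 0.543). Of 31 further endothelial and barrier genes, none passed and 4 (12.9%) had an unadjusted p under 0.05, 2 in each direction, where the share over all features was 8.73%. Adgrl4, an endothelial adhesion receptor, stood at 0.29 (SE 0.08, adjusted p = 0.341) and the monocarboxylate transporter Slc16a1 at -0.21 (SE 0.06, adjusted p = 0.347). Both had groups that did not overlap, as did 6.12% of all features. Of 7 tested genes of fenestrated, venous or activated endothelium, none passed or had an unadjusted p under 0.05, and Plvap stood at 0.11 (SE 0.06) and Slc38a4 at -0.18 (SE 0.14).

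The wider Ets family was measured in 13 of 16 listed genes. Ets2, at 3 copies, was the one that passed. Of the 13 tested genes 3 stood above 0, where 47.3% of all features did, and 10 below, 3 of them with an unadjusted p under 0.05 (4.57% of all features), with Etv1 at -0.14 (SE 0.06, adjusted p = 0.559).

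No marker of another cell type passed the test. Mean deviations of neuron markers ran from -0.04 to 0.05 over the 8 arrays, of microglia from -0.05 to 0.06, of astrocytes from -0.11 to 0.07 and of oligodendrocytes from -0.10 to 0.13. Blood genes, which follow how much blood was left in the tissue, ran from -0.67 to 0.68, and choroid plexus genes, whose vessels are fenestrated, from -0.16 to 0.26. All 5 tested blood genes stood above 0, where 47.3% of all features did, with a median of 0.32. None had an unadjusted p under 0.05 (limma), and Ts1Cje replicate 1 was the lowest array for blood. The groups overlapped for each of these 6 lists. Over all features, 8.73% had an unadjusted p under 0.05 (limma) and 6.12% had groups that did not overlap. By single markers, 1 of 7 astrocyte genes had such a p, the gap junction gene Gja1 at -0.31 (SE 0.11, adjusted p = 0.486, groups separate). Aqp4 was next at -0.19 (SE 0.17), and of the 7 astrocyte genes 6 stood below 0 and 1 above. In oligodendrocytes 1 of 6 did, Mbp at -0.27 (SE 0.10, adjusted p = 0.496), while Mobp stood at 0.62 (SE 0.35). In microglia 1 of 8 did, Tmem119 at -0.23 (SE 0.09, adjusted p = 0.515), with 4 genes on each side of 0. In choroid plexus 3 of 8 did, 2 higher and 1 lower, among them Otx2 at -0.77 (SE 0.29, adjusted p = 0.509) and Sostdc1 at 0.24 (SE 0.09, adjusted p = 0.526). Their part in the vascular values was not tested.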

How the data were processed

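Cy3-labelled RNA of 4 Ts1Cje and 4 wild-type hippocampi was hybridised to 8 arrays on 1 slide, read in 1 scan. Per the file headers, the authors quantified the images with Agilent Feature Extraction 10.10.1.1 on a design annotated on mm9. The authors deposited intensities on a linear scale for each spot, namely the background-corrected signal, not normalized between arrays, and the medians of spot and background, with other columns of flags.

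Control spots and outlier-flagged spots were left out. The log2 processed signal was averaged per probe, and centred by subtracting each array's 75th percentile over 55681 non-control probes. The filter on dim probes asked for the flag of a clear signal in all 4 arrays of at least 1 genotype (32596 kept). Probes were named through RefSeq accessions (GRCm38.p6 table, names, chromosomes and gene order only), and reduced to the brightest probe per gene, giving 24025 features. They were fitted with limma 3.58.1 in R 4.3.3 (lmFit, eBayes) and Benjamini-Hochberg adjusted over all of them, at a threshold of 0.05. Intervals are that fit's 95% intervals. P-values measure the spread between labelled replicates, taken as separate mice. The number of arrays limits the precision.

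The 35 genes and all lists were chosen with earlier results of these data known. Array-by-array values are given for the 6 transcription factors and the 2 genes of lowest p in every other role group; from other lists at most 2 genes of lowest p are named, with every gene near Erg. For simulated data of the 2 groups, 24021 features were drawn as independent normal values with each feature's mean and spread. At each fold 100 were changed, and 66% of 1.5-fold and 85% of 2-fold changes were recovered, with 8 of 159 calls false. Deviations shared between genes on an array were not simulated. The averages do not give the recovery of a gene with a wide spread, such as Erg. Python 3.11.15 with pandas 2.3.3 and matplotlib 3.10.9 made the tables and plots. Alternatives were other background corrections, centres, probe filters, variance models and blocks, and each array left out.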

Additional observations from a re-analysis of the deposited data

Results flagged for a closer look

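Of 84 sets of 4 arrays examined, the 35 genes, the means of the 6 role groups and Lcn2 in each genotype, 7 held an array set apart under Dixon's criterion, the gap to the nearest array over the whole range, where chance gives about 1 in 20 (4.2 of 84). Lcn2 had been picked because of its spread. The mean of the other endothelial genes holds Vwf and Ly6a, so its flag repeats theirs. The 7 are therefore not separate counts to set against 4.2.

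Ts1Cje replicate 1 stood apart in 4 of the 7. It was at 3.86 for Vwf, with the other Ts1Cje arrays at 1.79 to 2.06, and at 3.18 for Ly6a, with the others at 1.94 to 2.13. The mean deviation of the other endothelial genes was 0.97 on it and -0.18 to -0.01 on the rest of its group. For Lcn2 it stood at 1.92, against -1.84 to -1.63. Wild-type replicate 1 stood apart in its own group for Lcn2, at 1.31 against -2.62 to -2.33, and for Egfl7, at 4.67 against 4.54 to 4.56. Wild-type replicate 3 stood apart for Ets1, at -2.22 against -1.98 to -1.94.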

How the results depend on the processing

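Erg stayed higher in Ts1Cje and short of the adjusted threshold in all 19 alternatives (log2 0.30 to 0.83, adjusted p 0.249 to 0.720, unadjusted p under 0.05 in all 19). No gene of the 35 passed in any of them (lowest adjusted p 0.164). The median of the 34 genes at 2 copies moved by less than the spread between arrays. Single signs were less stable: 20 of the 34 changed sign in at least 1 alternative and 14, Pdgfrb among them, in none. Pdgfrb kept an unadjusted p under 0.05 in all 19, Eng in 11, and Tek, Emcn and Ly6c1 in 8 each. The count of 6 genes at an unadjusted p under 0.05, examined after the data were seen, was 3 with the array median as centre, with no filter on dim probes and with the trended prior (robust too), and 2 to 6 with 1 array left out (3 without wild-type replicate 1, 2 without wild-type replicate 2 or Ts1Cje replicate 4). The 47 calls over all features were 25 with the array median as centre, 1 with the endothelial mean as centre, 23 with no filter, 89 with array weights and 71 with the trended prior. They were 4 to 44 with 1 array left out, the fewest without Ts1Cje replicate 4 and 17 without Ts1Cje replicate 2, 24 without wild-type replicates 2 or 4 and 25 without Ts1Cje replicate 3. The cause was not tested. The split of calls stayed mostly higher: 42 higher and 5 lower in the main setting, 47 and 13 with quantile normalization.

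With the replicate block, 1 feature was called. Equal numbers deviated together by r of 0.24, 0.19, 0.11 and 0.05 for replicates 1 to 4. Each array correlated best with its own number in the other genotype, except wild-type replicate 4 and Ts1Cje replicate 3. The labels do not say that numbers mark littermates. In that fit Erg stayed at 0.71 (adjusted p = 0.370) and Vwf at 0.78, with an adjusted p of 0.239 in place of 0.669. By exact sign flips within equal numbers, whose p cannot go below 0.125 in 16 flips, the gains of Erg were 0.93 over Fli1, 0.79 over Sox7 and 0.65 over Sox18 and could not pass (adjusted p 0.156 each), so this says nothing of their stability. The gain of Erg over Ets1 passed with the mean over kept probes (0.82, exact permutation adjusted p = 0.0357). Over Fli1 the gain was 0.44, over Sox7 0.35 and over Sox18 0.26 with normexp. With 1 array left out the gain of Erg was 0.70 to 1.03 over Fli1, 0.49 to 0.87 over Ets1, 0.67 to 0.96 over Sox7, 0.45 to 0.73 over Sox17 and 0.48 to 0.81 over Sox18. Without Ts1Cje replicate 3 the gains over Ets1 and Sox17 passed too (exact permutation adjusted p = 0.0286). The number of arrays limits the precision.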
